A study of Mus musculus with 2 samples.

Results

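Melanocytes, the pigment cells of the skin, were followed in 2 single-cell RNA libraries from the dorsal skin of mice on postnatal day 3. A barcode was taken as a melanocyte when it held at least 1000 UMIs (unique molecular identifiers, each standing for 1 captured transcript), at least 500 genes and under 15% mitochondrial UMIs, when keratin genes took under 100 of every 10000 UMIs, and when at least 3 of the 6 genes Dct, Pmel, Mlana, Tyrp1, Tyr and Mitf were detected and summed to at least 10 UMIs per 10000. Under this rule the control library gave 82 cells and the induced library 243, together 325 of the 10436 barcodes that passed the quality filter. The control library had the genotype label Wildtype and the other the label miR-200b induced, and Dox was the treatment given for each. The labels name neither the induction construct and the promoter that drives it nor the strain, the number of animals or whether animals were pooled. Epidermis and dermis were dissociated apart and combined 30 to 70 before they were loaded. The title of the series names the sebaceous gland and SOX9 as its subject, and no question about pigment cells is stated. Each group was a single library, so no test between them could be run. The values below compare these 2 libraries, their intervals are 95% intervals of counting error only, and library, animal and genotype cannot be told apart.

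Melanocytes arise from the neural crest, reach the epidermis and hair follicles before birth, and pass melanin to keratinocytes in lysosome-related organelles called melanosomes. MITF is the central transcription factor of the lineage. It acts with SOX10 and PAX3 on the enzymes Tyr, Tyrp1 and Dct and the structural protein genes Pmel and Mlana, while the receptors KIT and EDNRB carry survival and migration signals from skin cells. In newborn dorsal skin of the mouse the pigment cells of the growing hair follicles are the main population. The microRNA miR-200b is an epithelial microRNA best known for holding down the transcription factors ZEB1 and ZEB2, and ZEB2 is itself a factor of the melanocyte lineage.

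The label was checked against genes that the rule did not use. Melanocytes were set beside other barcodes of the same quality: keratin-high ones with at least 100 keratin UMIs per 10000, other keratin-low ones, and among these the collagen-high ones with at least 50 UMIs of Col1a1, Col1a2 and Col3a1 per 10000, which served as the background for free RNA. The 15 genes outside the rule that exceeded other keratin-low barcodes most in both libraries were Ptgds, Gpnmb, Pax3, Mcoln3, Trpm1, Npy, Syt4, Slc45a2, Kit, Cpne4, Bace2, Mc1r, Glrb, Car14 and Sox10. Among these, Gpnmb, Trpm1, Slc45a2 and Mc1r are pigment cell genes and Pax3, Kit and Sox10 are lineage genes. Sox10 stood at 192 CPM (the UMIs of a gene summed over the cells of a class and scaled to a fixed total for that class) in control melanocytes against 4.72 in other keratin-low barcodes, and at 323 against 3.62 in the induced library. Ptgds, a prostaglandin D synthase, stood at 2111 against 2.92 CPM and at 4046 against 2.80 CPM. Of 10 immune markers, 7 were at 0 in the control and 5 in the induced melanocytes. All 6 muscle and nerve markers were at 0 in both. Of 15 Schwann cell and glial markers, 5 had enough counts to compare.

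The libraries held 9072 and 9114 barcodes, of which 5178 and 5258 passed the quality filter. Melanocytes had a median of 11490.5 UMIs in the control (2762 to 216676) and 7671 in the induced library (1002 to 30950), and together 1268384 and 2102410 UMIs. At the top of the control range was a single barcode with 216676 UMIs, 4.23 times the next deepest, which carried 17.1% of all control melanocyte UMIs. It had the lowest rule gene sum of all control members, 11.9 per 10000, the highest keratin level, 89.9 per 10000, and a doublet score in the top 7% of its library. Its barcode also occurred in the induced library with 569 UMIs, 1 of 74 barcodes that the libraries shared. Results that this barcode moves are therefore given with all 82 control members and with the other 81. In the induced library 1 member stood apart by fibroblast genes, with 178 UMIs per 10000 of the 7 fibroblast markers against 8.67 in the next, and 1 member had a barcode found in the control library.

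Melanocytes made up 1.58% of the quality-filtered barcodes in the control library (1.26 to 1.96) and 4.62% in the induced library (4.07 to 5.22). The induced share was 2.92-fold that of the control, a log2 ratio of 1.55 (1.18 to 1.92). Among barcodes low in keratin, the shares were 82 of 1389 (5.90%) and 243 of 1425 (17.1%). Both denominators thus gave a higher share in the induced library. The mix of suspensions was set by hand and its part in the shares was not tested. Just outside the rule, the highest rule gene sum among barcodes with at least 3 rule genes was 3.99 per 10000 in the control and 2.65 in the induced library, against lowest sums inside it of 11.9 and 14.8. Another 5 control and 10 induced barcodes passed the sum with fewer than 3 rule genes, up to 58.9 and 62.1 per 10000. A further 2 control and 17 induced barcodes met the gene criteria but held too much keratin, from 325 and 105 per 10000 upward.

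The 6 rule genes chose the cells, so their levels are a description. Every member was selected on the UMI counts of these genes in the same cells. All 6 were detected in 36 of 82 control and 165 of 243 induced members. After each cell was thinned to 2000 UMIs, which removes the difference in depth, all 6 were seen in 8.54% of control members (3.50 to 16.8) and 29.3% of induced members (23.6 to 35.5). Dct, the dopachrome tautomerase of the melanin pathway, stood at 4961 CPM in the control and 9424 in the induced library, and at 5866 in the control without the deepest barcode. Pmel, which forms the fibrils of the melanosome, stood at 3507 and 8045 CPM. Mlana, a melanosome membrane protein gene, stood at 906 and 2765 CPM. Per cell, the median of Mlana was 4.46 per 10000 in the control and 21.7 in the induced library, and 15.9% and 1.65% of members had no UMI of it. Tyrp1, a later enzyme of eumelanin synthesis, differed most of the 6, with 325 and 1573 CPM (log2 ratio 2.28, 2.13 to 2.43), or a ratio of 2.04 without the deepest barcode. The median cell had 0.62 and 7.78 Tyrp1 UMIs per 10000, and the control cells ended at 21.9 where the induced cells reached 78.2. Tyr, the rate-limiting enzyme of melanin synthesis, stood at 363 and 652 CPM, and Mitf at 339 and 750 CPM. All 6 genes were higher in the induced library, and the cells of the libraries overlapped in every one of them.

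**Figure D1:**
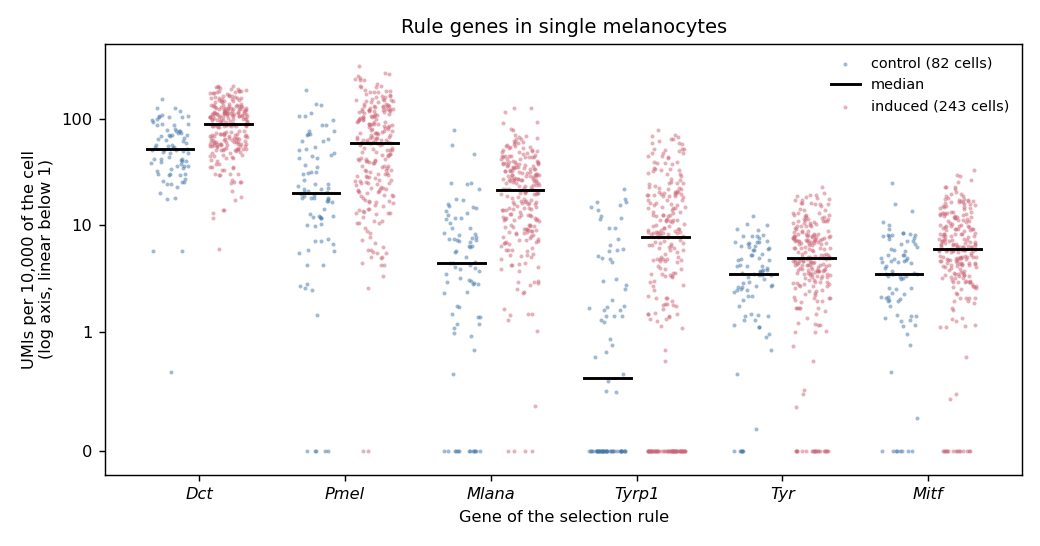
Each point is 1 melanocyte, with the UMIs of a rule gene per 10000 UMIs of the cell on a log axis that is linear below 1, and black bars are medians of the 82 control and 243 induced cells. The induced cells have the higher median for each gene, most clearly for Tyrp1 (0.62 against 7.78) and Mlana (4.46 against 21.7), with wide overlap.

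Differences between the libraries were read against all genes. A gene was counted as higher or lower when it had at least 100 UMIs over both libraries and 50 CPM in the higher one, when its CPM intervals did not overlap, and when the values differed at least 2-fold with 5 CPM added to both. Of 3390 genes with enough counts, 213 (6.28%) met this size rule, 96 (2.83%) higher and 117 (3.45%) lower in the induced melanocytes. Without the deepest control barcode 140 of 3394 (4.12%) met it, 72 (2.12%) higher and 68 (2%) lower, and 123 genes met it the same way in both. The median log2 ratio of the 3390 genes, with 5 CPM added, was 0.02. The count of lower genes thus depended on that barcode more than the count of higher genes did.

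Most pigment genes that the rule did not use stood at a higher CPM in the induced library, 28 of the 31 on the list with or without the deepest control barcode. The median log2 ratio over all 31 was 0.57, or 0.35 without that barcode. Of these, 18 had enough counts and 7 met the size rule, all higher, beside 2.83% of all genes. However, 5 of the 7 reached 50 CPM only in the induced library and so could be counted only as higher. Without the deepest control barcode 3 of 18 met it, Oca2, Mlph and Sytl2. The median of the 18 was 0.88 with all members and 0.66 without that barcode, against 0.02 and -0.02 over all genes. Per cell, the summed list had a median of 51.8 UMIs per 10000 in the control (8.08 to 170.0) and 89.1 in the induced library (11.9 to 225.3), so the cells overlapped over most of the range.

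Among the members of that list, Oca2 and Mlph stood furthest apart. Mlph, the linker between RAB27A and myosin Va that carries melanosomes along actin, had 43.4 CPM in control and 192 CPM in induced members, with a log2 ratio of 2.14 (1.74 to 2.58), or 1.87 without the deepest barcode. At 2000 UMIs per cell, where rare UMIs are lost, 2.44% of control and 31.0% of induced members had a Mlph UMI. The control share rests on very few cells. At full and unequal depth 23 of 82 control and 155 of 243 induced members had one. Collagen-high barcodes, whose median depths were 9433 and 6461 UMIs, had one in 0.621% and 0.361% of cells at 2000 UMIs. The share of induced melanocytes with Mlph was thus far above the share that free RNA gave in dermal cells. Its partner Rab27a stood at 36.3 and 86.1 CPM, a log2 ratio of 1.25, and the RAB27A effector gene Sytl2 at 32.3 and 83.7 CPM, a ratio of 1.37. Myo5a, which encodes myosin Va, stood at 169.5 and 316 CPM, a log2 ratio of 0.90, and missed the size rule.

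Channel and transporter genes of the list are given next. Oca2, an anion channel of the melanosome, had 9 UMIs in 4 control members and 152 UMIs in 36 induced members, 7.10 and 72.3 CPM. At 2000 UMIs, a depth at which rare UMIs are lost, it was seen in 0 of 82 control members and in 8.37% of induced members, with 0 in collagen-high barcodes of both libraries. Oca2 was therefore seen in a minority of induced cells, and 19.1% of its induced UMIs came from 1 of them. Slc24a5, a potassium-dependent sodium and calcium exchanger of the melanosome, stood at 837 and 1766 CPM, a log2 ratio of 1.08 (0.98 to 1.18) and 0.83 without the deepest barcode. Trpm1, a channel gene whose intron holds a melanocyte microRNA, stood at 382 and 802 CPM, and Gpr143, the ocular albinism receptor gene, at 43.4 and 99.4 CPM. Slc45a2, a transporter gene mutated in oculocutaneous albinism, stood at 222 and 331 CPM, and Gpnmb at 881 and 1631 CPM. Neither met the size rule, nor did Cd63, a melanosome and endosome membrane gene, at 1901 and 3207 CPM. Slc7a11, a cystine transporter gene, had 16 UMIs in 2 control members and 0 in induced members, too few for the size rule. Of the 18 genes with enough counts, the 1 on the other side was Bloc1s1, a subunit of the organelle biogenesis complex BLOC-1, at 56.8 and 27.1 CPM, a log2 ratio of -1.07 (-1.59 to -0.54).

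MITF binds the M-box, a promoter element with the core TCATGTG, so the RefSeq promoters (GRCm38.p6, 250 bases before to 50 after the start of transcription) were searched for this word and its reverse complement CACATGA. The word was in 3 of the 4 rule genes with a promoter entry and in 5 of 26 pigment genes outside the rule (19.2%), against 72 of 2726 genes with enough counts (2.64%), 1 of 27 cell cycle genes and 0 of 11 lineage factors. Over all 32851 promoter windows 3.77% held it. A match is a description of the letters and does not show binding. All matches in the rule genes and in the pigment genes outside the rule follow, in the reading direction of the gene with the word in capitals. They lie at chr14:118052381-118052407 and chr14:118052462-118052488 (minus strand) for Dct, chr4:80834156-80834182 (plus) for Tyrp1, chr7:87493518-87493544 (minus) for Tyr, chr7:64153683-64153709 (plus) for Trpm1, chr2:125068104-125068130 (plus) for Slc24a5, chr11:120442600-120442626 (plus) for Tspan10, chr3:50443672-50443698 (minus) for Slc7a11 and chr19:42779977-42780003 (minus) for Hps1.
Dct site 1: gcacttagggTCATGTGctaacaaaga
Dct site 2: ttggctgggaCACATGAgcccaataaa
Tyrp1: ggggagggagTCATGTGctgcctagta
Tyr: aaaaagttagTCATGTGctttgcagaa
Trpm1: caaatcctcaTCATGTGcccaccccaa
Slc24a5: ggagactgctCACATGAttcagcataa
Tspan10: tgtgactcctCACATGAtaccactgtg
Slc7a11: tggagttttcTCATGTGgctgatgcaa
Hps1: caggccccggTCATGTGgctgagtcac
Counted from the start of transcription, the word begins at positions -151 and -232 in Dct, and at -47 in Tyrp1, -22 in Tyr, -142 in Trpm1, -13 in Slc24a5, -21 in Tspan10, -75 in Slc7a11 and -15 in Hps1. Tspan10, a tetraspanin gene, stood at 55.2 CPM in control and 102 CPM in induced members and missed the size rule. Hps1, a gene of lysosome-related organelle biogenesis, stood at 13.4 and 16.2 CPM, too few counts to compare, and Slc7a11 was on the other side as given above. The windows of Mlph and Oca2 do not hold these letters.

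Among the transcription factors of the lineage, 11 of 18 listed had enough counts. Over all 18 the median log2 ratio was 0.15, with 10 higher and 8 lower in the induced library. Of the 11, 2 met the size rule as higher and 1 as lower, beside 2.83% and 3.45% of all genes, and their median was 0.63, or 0.49 without the deepest control barcode, where 2 of them met the rule as higher, beside 2.12%, and 0 as lower. Sox10 stood at 192 and 323 CPM, a log2 ratio of 0.76 (0.54 to 0.97), and 0.50 without that barcode. Pax3 stood at 547 and 669.7 CPM, and at 658 CPM in the control without the deepest barcode, where the ratio was 0.03 (-0.11 to 0.16). The median cell had 6.32 and 6.33 Pax3 UMIs per 10000, so the difference in Pax3 was within counting error once that barcode was left out. Tfap2b, an AP-2 factor, stood at 123 and 333 CPM, a log2 ratio of 1.44 (1.19 to 1.70), and was seen at equal depth in 23.2% and 46.4% of members. Tfeb, a relative of MITF that drives lysosome genes, stood at 39.4 and 107 CPM. Both met the size rule with and without the deepest barcode, whereas Tfap2a, at 158 and 272 CPM, did not meet it. Tfeb reached 50 CPM only in the induced library and so could be counted only as higher.

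Sox9, the factor in the title of the series, was seen in few melanocytes. It had a UMI in 6 of 82 control and 17 of 243 induced members. The sums gave 102 and 29.5 CPM, but 120 of the 130 control UMIs came from the deepest barcode, and without it the control stood at 9.51 CPM, so that the log2 ratio turned from -1.80 to 1.63 (0.66 to 2.76). Among the remaining factors Foxd3 stood at 63.1 and 86.1 CPM, Id3 at 142 and 202, Ets1 at 161 and 253 and Mef2c at 139 and 135. Lef1, Sox5, Snai2, Tfe3, Tbx2 and Zeb1 lay between 21.3 and 34.7 CPM in the control and between 11.9 and 31.4 CPM in the induced library, too few counts for the size rule. Lef1 (34.7 and 19.0 CPM) and Snai2 (24.4 and 11.9 CPM) were lower in the induced library, as were Tbx2, Tfe3 and, by little, Zeb1.

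Of the receptors, 11 of 16 reached 20 CPM in a library and 7 had enough counts for the size rule, with a median of 0.76, or 0.50 without the deepest control barcode. Over the 11 the median was 0.15, and over all 16 it was 0.01, or 0.23 without that barcode, with 8 on each side, so the higher median rests on the genes with more counts. Kit, the receptor for the survival signal from keratinocytes, stood at 297 and 507 CPM, a log2 ratio of 0.77 (0.60 to 0.94), and 0.51 without that barcode. Ednrb, the endothelin receptor gene, stood at 216 and 383 CPM, and Mc1r, the receptor for the pigment hormone, at 127 and 244 CPM. These 3 receptors were all higher in the induced library and all under the 2-fold limit. Met, the receptor for hepatocyte growth factor, was the 1 receptor of 7 to meet the size rule, beside 2.83% of all genes as higher. It stood at 28.4 and 73.2 CPM, a ratio of 1.37 (0.84 to 1.93), with 73.2% and 73.7% of members at 0 for cells of unequal depth. Met reached 50 CPM only in the induced library and so could be counted only as higher. Erbb3 (115 and 128 CPM) and Igf1r (59.9 and 79.4 CPM) stood close together, and Notch1 was lower at 61.5 and 37.6 CPM. Fgfr1 was at 45.7 and 29.5 CPM, and at 14.3 CPM in the control without the deepest barcode, so its direction turned. Notch2, Lgr4 and Bmpr1a lay between 19.5 and 30.7 CPM. Ligands of these receptors were hardly detected in the melanocytes themselves. Of 13 matched ligand genes none had enough counts, and Kitl, which encodes the KIT ligand, had 16 and 19 UMIs.

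**Figure D2:**
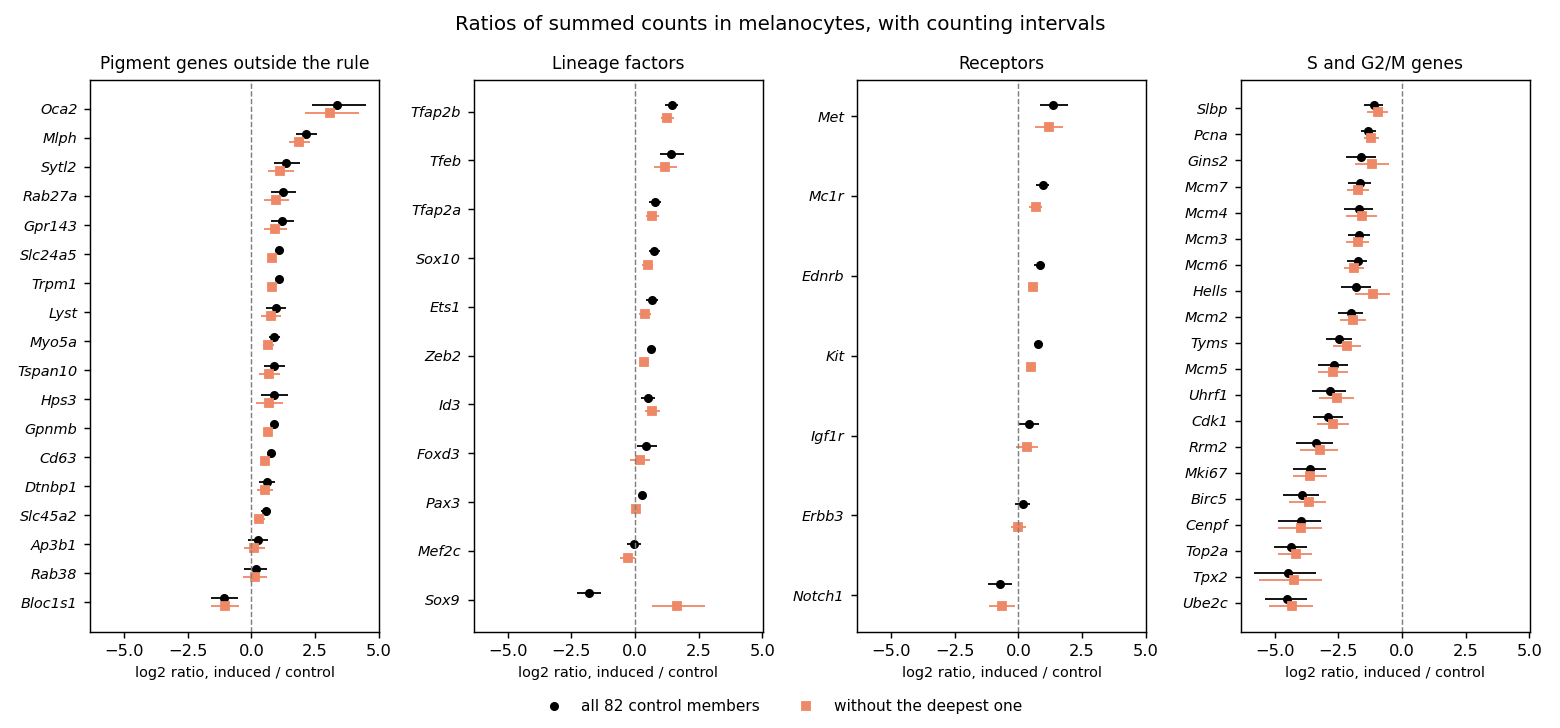
Log2 ratios of summed UMIs, induced over control, with 95% counting intervals for each gene with enough counts, with all 82 control members (black) and without the deepest one (orange). Pigment genes lie mostly right of 0, S and G2/M genes all left of 0, and Sox9 changes side when 1 barcode is left out.

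Most adhesion, survival and stress genes with enough counts missed the size rule, which 6.28% of all genes met in either direction. In the adhesion list 1 of 7 genes met it: Cdh3, the P-cadherin gene, at 85.9 and 185.5 CPM, a log2 ratio of 1.11 (0.80 to 1.43) and 1.08 without the deepest barcode. Cdh1, the E-cadherin gene, stood at 169 and 175 CPM, a ratio of 0.05 (-0.19 to 0.30). None of 5 apoptosis regulators met the rule. Bcl2, a survival factor that melanocytes need, stood at 205 and 134 CPM, and Trp53 at 154 and 93.2 CPM, with 15.9% and 40.7% of members without a Bcl2 UMI at unequal depth. Of 16 stress and immediate early genes 2 met the rule, Fos at 479 and 989 CPM and Nfkbia at 41.8 and 94.2 CPM. Neither did without the deepest barcode, and Nfkbia reached 50 CPM only in the induced library, so it could be counted only as higher. Of 3 Wnt genes with enough counts, Nkd1 (50.5 and 107 CPM) and Dkk3 (83.6 and 178 CPM) met it, and neither did without that barcode. Of 4 interferon and class I antigen genes none met it.

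Cell cycle genes were lower in the induced melanocytes. All 16 members of the S phase list and all 16 of the G2/M list had a lower CPM in the induced library, with and without the deepest control barcode, and the medians over all 16 were -1.63 and -2.65. Of these, 13 and 7 had enough counts and met the size rule as lower, beside 3.45% of all genes, with medians of -1.56 and -3.23. The 7 G2/M genes and 11 of the 13 S phase genes passed the 50 CPM minimum only through the control, where they were high, so they could be counted only as lower. Without the deepest barcode, which carried 24.6% of the control G2/M UMIs, 9 and 6 of them met it and the medians were -1.60 and -3.12. Top2a, the topoisomerase of dividing cells, stood at 222 and 10.9 CPM, a log2 ratio of -4.34 (-5.02 to -3.73). Mki67, the usual proliferation marker, stood at 138 and 11.4 CPM, and at 138 CPM in the control without that barcode too. Mcm5, a subunit of the replicative helicase, stood at 101 and 15.7 CPM, and Pcna, the sliding clamp of DNA polymerase, at 207 and 83.2 CPM. The median over all 16 G2/M genes was thus further from 0 than that of the S phase genes, which was not tested.

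The sums came from a minority of cells. At 2000 UMIs per cell, 15 of 82 control members (18.3%, 10.6 to 28.4) and 5 of 239 induced members (2.09%, 0.683 to 4.81) had at least 2 UMIs of the 16 G2/M genes, with 4 induced members too shallow to count. Without thinning the shares were 30.5% and 8.64%. At least 2 UMIs of the 16 S phase genes were found in 35.4% (25.1 to 46.7) and 13.0% (8.99 to 17.9). Neither pair of intervals overlapped. Most members of both libraries had no G2/M UMI at full depth, 51.2% in the control and 77.8% in the induced library.

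The shares of cells with G2/M UMIs were also lower in the induced library in 2 other classes. Collagen-high barcodes had at least 2 G2/M UMIs in 9.47% and 0.722% of cells, and keratin-high barcodes in 21.0% and 10.4%. Other keratin-low barcodes stood at 24.2% and 22.9%, within counting error of each other. The median log2 ratio of the G2/M genes with enough counts in melanocytes was -2.40 in collagen-high and -1.16 in keratin-high barcodes, but 0.04 in other keratin-low barcodes (-0.04 to 0.38 over the 7 genes). Of the 3390 genes, 124 (3.66%) met the size rule as lower in keratin-high and 75 (2.21%) in collagen-high barcodes. As higher, 20 (0.59%) and 75 (2.21%) met it. The lower ones shared 44 genes (35.5% of the keratin-high ones) and 38 genes (50.7% of the collagen-high ones) with the 117 lower genes of melanocytes, 37.6% and 32.5% of these. Whether the classes differed in this was not tested.

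Pigment and cycle genes were not exclusive within a cell. Control members with at least 2 G2/M UMIs had a median of 38.1 UMIs per 10000 of the pigment genes outside the rule (8.08 to 119), and the 46 control members under 2 UMIs of either cycle list had 55.7 (18.6 to 170.0). In the induced library the medians were 86.5 in 5 cells and 92.0 in 205 cells. The higher pigment level of the induced library was thus seen in the cells under 2 UMIs of either cycle list at equal depth as well. Across cells, the summed pigment genes outside the rule had a Spearman correlation with the rule genes of 0.46 over 82 control cells and 0.68 over 239 induced cells, and with the G2/M genes of -0.12 and -0.05. Cells of a library share its preparation, and the scaled values share the total of each cell, so these values are descriptions.

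**Figure D3:**
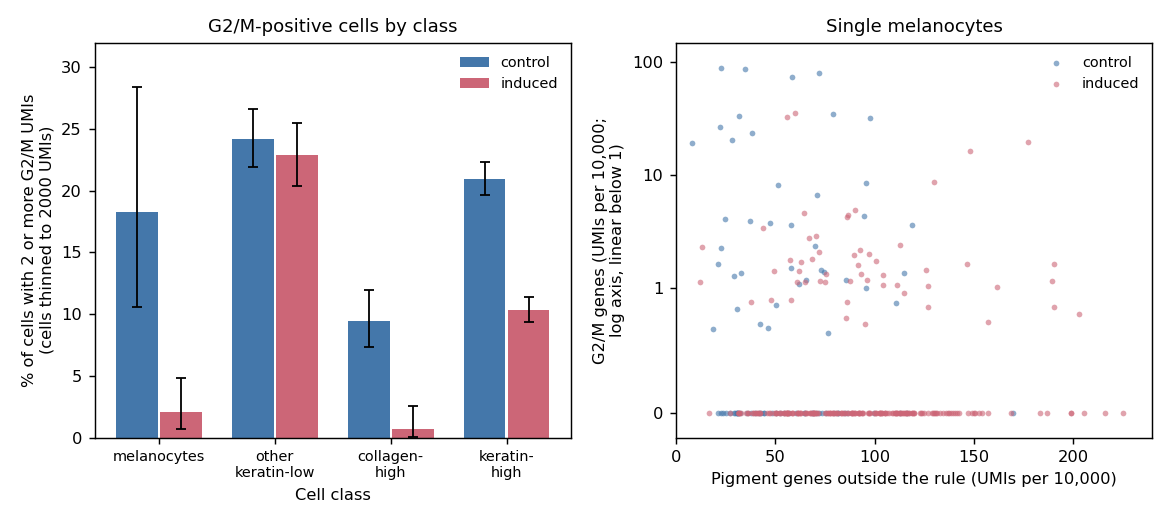
Left, the share of cells with at least 2 G2/M UMIs after thinning to 2000 UMIs, with exact 95% counting intervals, by class and library. Melanocytes stand at 18.3% in the control and 2.09% in the induced library, and on the right each point is 1 melanocyte with its G2/M UMIs against its pigment UMIs, both per 10000.

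The 10 genes with the largest rank among the higher ones were Lpl, Oca2, Apod, Wdfy1, Tsc22d3, Mlph, Cldn10, Trim63, Nkain4 and Plcb4. All but Apod and Cldn10 reached 50 CPM only in the induced library and so could be ranked only as higher. Apod, a lipocalin gene, stood at 152 and 680.2 CPM (log2 ratio 2.16, 1.94 to 2.38), and the median cell had 0.55 and 2.58 UMIs per 10000. Apod also met the size rule as higher in collagen-high barcodes, at 23.9 and 479 CPM, and in other keratin-low barcodes, at 11.97 and 86.3 CPM. Tsc22d3, a glucocorticoid-induced leucine zipper gene, stood at 41.0 and 188 CPM, and at equal depth was seen in 9.76% and 36.8% of members, but also in 10.4% and 27.4% of collagen-high barcodes. Wdfy1 (35.5 and 168 CPM), the claudin gene Cldn10 (78.1 and 327 CPM) and the ubiquitin ligase gene Trim63 (14.2 and 71.3 CPM) were spread over many cells, with at most 2.67% of the induced UMIs from 1 cell. Lpl, the lipoprotein lipase, stood first at 5.52 and 86.1 CPM, but 93 of its 181 induced UMIs came from the member with the fibroblast genes, which also held 70 of 78 Dcn UMIs. Without that member and the top control cell Lpl stood at 4.75 and 42.2 CPM. Lpl in collagen-high barcodes stood at 170.2 and 855 CPM, and the part of fibroblast RNA in the melanocyte value was not tested.

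The 10 largest lower genes were Hist1h2ap, Top2a, Ube2c, Pclaf, Cdkn1c, Birc5, Cxcl10, Tpx2, Cenpf and Tk1, of which 5 belong to the cycle lists. All 10 reached 50 CPM only in the control and so could be ranked only as lower. The histone gene Hist1h2ap stood at 309.8 and 3.81 CPM, with 265 of 393 control UMIs in the deepest barcode and 122 CPM without it. Ube2c, which passes ubiquitin to mitotic cyclins, stood at 151 and 6.66 CPM, and at 131 CPM without that barcode. Pclaf, a PCNA-binding factor gene, stood at 166 and 9.04 CPM, and at 99.8 CPM without it. The cycle genes thus stayed far apart when that barcode was left out, while 2 others rested on single cells. For Cdkn1c, a cyclin-dependent kinase inhibitor gene, 201 of 217 control UMIs (92.6%) came from 1 cell, and without the top cell of each library the values were 12.8 and 10.5 CPM. For the chemokine gene Cxcl10, 176 of 231 control UMIs came from 1 cell, 6 of 82 control members had any, and the values without the top cells were 44.2 and 7.66 CPM.

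Keratinocyte genes were present at low levels in both libraries, and their direction turned on the deepest control barcode. Krt14, a keratin of the basal layer, stood at 476 and 348 CPM with all members, and at 112 CPM in the control without that barcode. Of 9 keratinocyte genes with enough counts 2 met the size rule as lower with all members, Krt15 and Perp (3.45% of all genes), and 6 met it as higher without the barcode (2.12% of all genes), with medians of -0.45 and 1.33. Per cell, the 12 keratinocyte markers summed to a median of 5.52 per 10000 in the control (0 to 101) and 9.82 in the induced library (2.17 to 117). Keratin-high barcodes held Krt14 at 10689 CPM in the control library. The part of keratinocyte RNA in the melanocyte values was not tested.

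The labelled induction was read on Gm13648, an annotated transcript over the miR-200b locus (ENSMUSG00000086549, chr4:156052715-156059802, minus strand, GRCm38), since 3′ libraries do not capture the mature microRNA. Melanocytes of the control library had 0 UMIs, which allows up to 2.37 CPM, and those of the induced library had 71 UMIs, 33.8 CPM (26.4 to 42.6). Keratin-high barcodes stood at 2.34 and 529 CPM, other keratin-low barcodes at 1.27 and 399.7 CPM, and the collagen-high ones among these at 0.153 and 16.9 CPM. In the induced library the melanocyte value thus lay above that of collagen-high barcodes and below those of the other classes. Of the 71 UMIs, 58 lay in 7 members with at least 50 keratin UMIs per 10000, up to 21 in 1 cell, and the 236 members under that level held 13 UMIs in 13 cells. With a keratin limit of 50 the induced melanocytes stood at 6.62 CPM, below the collagen-high value, which was taken at the limit of 100. At 2000 UMIs per cell a Gm13648 UMI was seen in 2.09% of induced melanocytes (0.683 to 4.81), in 3.97% of collagen-high barcodes (2.0 to 6.99) and in 56.2% of keratin-high barcodes. The share in melanocytes was at or below that in the dermal background.

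A microRNA acts on transcripts whose 3′ untranslated region (UTR) pairs with its seed, bases 2 to 8 of the mature RNA. The mature miR-200b-3p (RefSeq, chr4:156055685-156055706, minus strand, GRCm38.p6) is shown with the seed in capitals. Below it are the 5 matches to the seed in the 4941 bases of the Zeb2 3′ UTR (GENCODE annotation of GRCm38, minus strand), with the 7-base match CAGTATT in capitals. Zeb2 is shown because it is both a target named for miR-200b and a factor of the melanocyte lineage. The Zeb2 matches lie at chr2:44988166-44988188, chr2:44988101-44988123, chr2:44987739-44987761, chr2:44987654-44987676 and chr2:44987520-44987542, in this order.
miR-200b-3p: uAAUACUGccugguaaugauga
Zeb2 site 1: ccatacatCAGTATTttattatt
Zeb2 site 2: cagtgcatCAGTATTacgattcc
Zeb2 site 3: acccgtgtCAGTATTagacgact
Zeb2 site 4: aattttgtCAGTATTacaccaaa
Zeb2 site 5: gtagtgtaCAGTATTatagttct
Sites 2 to 5 carry the 8-base match CAGTATTA.

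Zeb2 was not lower in the induced melanocytes. Control members had 285 CPM and induced members 444 CPM (log2 ratio 0.64, 0.46 to 0.82). Without the deepest barcode the control stood at 342 CPM and the ratio at 0.37 (0.20 to 0.55). The median cell had 3.32 and 3.69 UMIs per 10000. Zeb1, with 5 matches, stood at 32.3 and 31.4 CPM, a ratio of -0.04 (-0.63 to 0.56). Of 22 genes often named as miR-200b targets 9 had enough counts and none met the size rule, beside 6.28% of all genes, a share too small to read anything from 9 genes. Their median was 0.20 against 0.02 over all genes, and over all 22 it was -0.02. Qk, an RNA-binding protein gene with 3 matches, stood at 404 and 506 CPM, and the actin regulator gene Cfl2 with 2 matches at 121 and 137 CPM. Msn, the moesin gene with 2 matches, was lower at 253 and 199.8 CPM, a log2 ratio of -0.34 (-0.55 to -0.13). In keratin-high barcodes the same 3 genes met the size rule as lower, beside 3.66% of all 3390 genes. Qk stood at 129 and 45.0 CPM there, Cfl2 at 79.4 and 29.1 CPM and Msn at 110.2 and 41.9 CPM. These 3 do not stand for the list. The 9 targets had a median of -0.50 in keratin-high barcodes, against -0.14 over all genes. In melanocytes Marcks, the target with the most UMIs and 1 match, had a log2 ratio of 0.39 (0.28 to 0.50). Ets1, with 3 matches, had 0.65 (0.42 to 0.89).

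The match was then counted over all genes with an annotated 3′ UTR. Among genes whose mean in melanocytes reached 20 CPM, the 1022 with a 7-base match had a median log2 ratio of 0.08, the 4980 without one 0.03, and the 253 with an 8-base match 0.09. Without the deepest barcode the medians were 0.02 with a 7-base match and 0.05 with an 8-base match. Genes with the match that met the size rule numbered 13 higher (1.27%) and 13 lower (1.27%), beside 1.53% and 1.93% of all 6002 genes with a 3′ UTR. In keratin-high barcodes the 869 genes with a match had a median of -0.29 against -0.09 in genes without one, and 1 met the rule as higher (0.115%) and 55 as lower (6.33%), beside 1.51% and 3.43% of all 5712 genes with a 3′ UTR. Genes with a match had longer 3′ UTRs, a median of 2544.5 bases in melanocytes against 945 for genes without one, and the part of length was not tested.

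**Figure D4:**
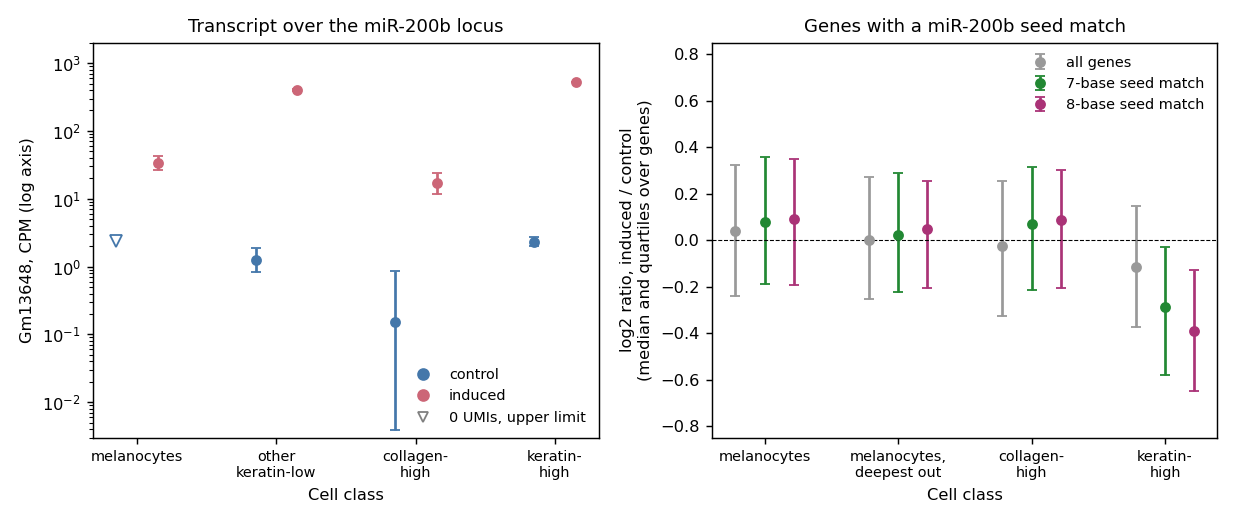
Left, Gm13648 in CPM on a log axis by class and library, with 95% counting intervals and an open triangle for the upper limit of a class with 0 UMIs. Right, medians and quartiles over genes of the log2 ratio for all genes with a 3′ UTR and for those with a seed match. In melanocytes the medians of 0.04, 0.08 and 0.09 lie close together, and in keratin-high barcodes they lie at -0.12, -0.29 and -0.39.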

How the data were processed

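Per the labels' protocols, cells were captured on the 10x Genomics platform and made into 3′ libraries with the version 3.1 chemistry, and per the submitters' processing notes Cell Ranger 6.0.0 and the mm10 genome were used. The deposited matrices hold raw UMI counts per gene and barcode for 32285 genes, with no cell type annotation, and no barcode under 500 UMIs. The members, gene lists and thresholds were chosen with earlier results of these data known.

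Cells were selected by the rule given in the report. UMI counts were summed over the members of a library and scaled to CPM (counts scaled to the total of the summed cells) with exact Poisson 95% intervals, ratios have exact conditional binomial intervals, and intervals of cell shares are exact (Clopper-Pearson). For Gm13648 at 0 UMIs the upper limit from 3 counts is given, and other values of 0 stand without a limit. Medians of lists use 5 CPM added to both values. Shares of cells with a UMI were taken after thinning every cell to 2000 UMIs. Scrublet, run through scanpy 1.11.5, marked 3 and 1 barcodes (0.0579% and 0.0190%), which was not usable as a doublet call. No doublets were removed, and leaving out the top 7% of scores, which held 4 control and 8 induced members, is an alternative. The size rule and the intervals were tested on simulated counts with known changes. These were Poisson sums per library, with changes larger than the limit of the size rule and no variation between cells. The simulation therefore does not cover sums that rest on single cells.

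Genes were named by rule: rule genes, lineage factors and receptors with at least 20 CPM in a library, list members that met the size rule and up to 4 others per list, the 10 largest differences in each direction, and the 15 genes with the largest fold over other keratin-low barcodes. Cells behind single genes were looked up after the values were seen, as were barcodes of extreme depth. The 3′ UTR matches used the longest 3′ UTR of each coding gene in the GENCODE annotation of GRCm38 (20869 genes, 2782 with a match). Promoters and the microRNA came from RefSeq tables of GRCm38.p6. The ligand gene Asip had no symbol match. Python 3.11.15, numpy 2.4.6, scipy 1.17.1 and pandas 2.3.3 were used. Single glial markers are not reported here.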

Additional observations from a re-analysis of the deposited data

Results flagged for a closer look

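A few values had opposite signs in melanocytes and keratin-high barcodes. No difference between the classes was tested, since each class has 1 library per group. The median log2 ratio of genes with a 7-base miR-200b seed match was 0.079 in melanocytes, or 0.02 without the deepest control barcode, and -0.29 in keratin-high barcodes. Over all genes with a 3′ UTR it was 0.04 and -0.12.

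Of the 96 higher genes of melanocytes 5 were also higher and 4 lower in keratin-high barcodes, and of the 117 lower genes 44 were also lower and 0 higher. Over all 3390 genes 0.59% were higher and 3.66% lower there, so the 4 genes are near that share and are given as values. The 4 genes with opposite signs, Apoe, Glul, Mgll and Mgst1, met the size rule as higher in induced melanocytes and as lower in induced keratin-high barcodes, with ratios that have 5 CPM added. Apoe, the apolipoprotein E gene, stood at 643 and 1601 CPM in melanocytes (log2 ratio 1.31) and had a ratio of -1.51 in keratin-high barcodes. Glul, which encodes glutamine synthetase, stood at 112 and 259 CPM (1.17), with -1.62 in keratin-high barcodes. Mgll, the monoglyceride lipase gene, stood at 397 and 1105 CPM (1.47), with -1.85 in keratin-high barcodes. Mgst1, a microsomal glutathione transferase gene, stood at 109 and 253 CPM (1.18), with -2.78 in keratin-high barcodes, and missed the rule in melanocytes without the deepest control barcode.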

How the results depend on the processing

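The log2 ratio of the melanocyte shares kept its direction under all 12 alternatives run (1.54 to 1.77), as did, under the 14 run for it, the ratio of the shares with 2 G2/M UMIs (-3.57 to -1.82) and, under the 20 run for them, the median of the pigment genes outside the rule (0.61 to 0.94) and that of the S phase genes (-1.76 to -1.25). The median of the G2/M genes (-3.23) was -2.33 with 20 CPM added, -2.63 with each cell weighted equally, and -0.67 without the members that these same genes mark as cycling. The count of higher genes (96) was 51 with 20 CPM added, 301 without minimum counts, 51 with a minimum of 300 UMIs and 30 after thinning. The count of lower genes (117) was 428 without minimum counts, 29 with a minimum of 300 UMIs, 9 after thinning and 23 without cycling members. Other members moved it too: 73 with a keratin limit of 50, 70 with a rule gene sum of 20, 62 without the top 7% of doublet scores and 68 without shared barcodes, and, chosen after seeing the data, 68 without the deepest control barcode, 51 without the 5 deepest members of each library and 62 with at most 30000 UMIs and a keratin limit of 50. Gm13648 in induced melanocytes (33.8 CPM) was 24.0 with the stricter cell filter, 6.62 and 70.4 with keratin limits of 50 and 200, 6.67 without high doublet scores, 12.2 without the deepest members and 6.73 with at most 30000 UMIs and a keratin limit of 50. Except where fewer genes or cells entered, the cause was not tested. Some alternatives could not move some values. A rule gene sum of 5 kept the same 82 control and 243 induced members. The medians of the lists were always taken over the genes of the main run, so changed minimum counts left them as they were. Over all 31 pigment genes outside the rule the median was 0.57, below the range given for the alternatives.

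With 5 CPM added, and for the settings keratin limit 50, rule gene sum of 20, doublet scores, shared barcodes, deepest barcode, 5 deepest members, 30000 UMIs with keratin limit 50, equal weights, thinning and cycling members left out in this order, the log2 ratio of Fgfr1 reversed to 0.61, 0.72, 0.70, 0.84, 0.84, 0.76, 0.61, 0.72, 2.69 and 1.19, and that of Perp to 0.31, 0.92, 0.81, 1.04, 1.04, 1.14, 0.81, 0.39, 0.98 and 0.79. Sox9, not reversed by the keratin limit of 50 alone, went to 1.15, 0.16, 1.25, 1.25, 1.25, 0.23, 0.10, 1.44 and 1.05. Pax3 reversed to -0.00198 without the 5 deepest members and -0.0693 without cycling members, and thinning reversed Msn to 0.13, Qk to -0.13 and Slbp to 0.79. Of the values of single genes, 1468 stayed within their error, 258 moved and 34 reversed. The 1468 include settings that could not move a ratio. With a rule gene sum of 5 the cells were the same, and changed minimum counts do not enter a ratio. Each of these settings gave 88 values within their error by construction. No paired analysis was possible because the labels give no replicate numbers and each group is 1 library. Weighting each cell equally gives no counting interval and so no count of genes. Depth limits genes under about 50 CPM, of which a member holds few UMIs.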

Other observations

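Other genes that met the size rule as higher in the induced melanocytes are given here as values, chosen after these values were seen. Atp6v0a1, a subunit of the vacuolar proton pump, stood at 94.6 CPM in the control and 291 in the induced library, and the cathepsin gene Ctsl at 498 and 1295 CPM, with 111 and 574 CPM in the control without the deepest barcode. Slc7a5 and Slc3a2, which encode the light and heavy chain of an amino acid transporter, stood at 95.4 and 277 CPM and at 337 and 749 CPM. Slc3a2 missed the rule without the deepest barcode and Slc7a5 did not. Tbx3, a T-box factor gene, stood at 15.8 and 55.7 CPM.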
